A study of Mus musculus with 16 samples.

Results

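Axon guidance ligands and receptors were followed across the 4 genotypes as 69 genes of the 23284 in the table. They were chosen by name: symbols that start with Sema, Plxn, Epha, Ephb, Efna, Efnb, Robo or Unc5, and 12 further genes for neuropilins, Slits, netrins, netrin-Gs, Dcc and Neo1. A mean of at least 0.5 FPKM over the 16 libraries was also required, where FPKM is the number of fragments scaled by transcript length and library size. Of the 73 names that fit, 4 were below that level: Epha2 at 0.310 FPKM, Efna4 at 0.248, Epha1 at 0.157 and Unc5cl at 0.0613. The members just inside it were Sema3b at 0.991 and Robo4 at 1.01 FPKM. The name rule also took in Unc50, which shares letters with the netrin receptors but is not known as one, and 68 genes remain without it.

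RNA was sequenced from freshly dissected prefrontal cortex (PFC) of mice aged 2 to 3 months, of both sexes, with 4 libraries for each genotype. All 3 mutant lines carried the same CamKIIα-Cre-93 transgene, a recombinase driver active mainly in excitatory neurons of the forebrain, from the first weeks after birth. APC cKO mice (APC fl/fl) lacked adenomatous polyposis coli, part of the complex that marks β-catenin (β-cat) for destruction, and β-cat cOE mice (ctnnb1 fl(ex3)/+, Bcat cOE in the labels) made β-cat without the domain through which it is degraded. APC/β-cat cKO mice (APC fl/fl and ctnnb1 fl/fl, APC/Bcat cKO in the labels) lost both proteins. Controls were Cre-negative littermates gathered from all of the lines, and so lacked the recombinase. The study names APC cKO and β-cat cOE the elevated β-cat lines, and APC/β-cat cKO the reduced line. PFC tissue holds many cells that the driver does not reach, and fewer cells of a type cannot be told apart from less RNA per cell.

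Semaphorins are secreted or membrane-bound ligands that are read by plexins, with neuropilins as co-receptors for the secreted class 3. Ephrins, held on the membrane by a lipid anchor (ephrin-A) or a transmembrane segment (ephrin-B), bind Eph receptor tyrosine kinases, and both partners can signal into their own cell. Slits bind Robo receptors, and netrins bind Dcc, Neo1 and the Unc5 receptors. These families steer growing axons in development, and in the adult cortex many of them act at synapses and dendritic spines. β-Cat, besides its place at cell junctions, enters the nucleus and acts there with TCF/LEF proteins, which bind DNA at sequences that contain CTTTGA.

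Apc went with the labels for the APC deletion. It had 43.9 ± 4.21 FPKM in control (SD, n = 4) and 44.5 ± 5.11 in β-cat cOE, against 11.7 ± 3.88 in APC cKO and 10.05 ± 2.30 in APC/β-cat cKO. Ctnnb1 was at 160 ± 4.54 FPKM in control, 170 ± 10.8 in APC cKO, 160 ± 4.43 in β-cat cOE and 155 ± 2.55 in APC/β-cat cKO. A value for the whole gene does not check a deletion of some of its exons, so the labels for the Ctnnb1 alleles were not checked. The labels do not say whether each library was a separate mouse, so p-values measure the spread between these libraries. Excitatory neuron markers such as Slc17a7 and Camk2a summed to between 1088 and 1401 FPKM per library. Markers of striatal neurons, which lie next to the PFC, summed to between 108 and 414 FPKM in control libraries and between 144 and 585 in APC cKO libraries. That sum was highest in control replicate 1, APC cKO replicate 3, β-cat cOE replicate 4 and APC/β-cat cKO replicate 4, and counts without these 4 libraries are given where they differ. For those counts, and for counts with a library left out, the share of all genes is not given. A shift in such a count is therefore not shown to be particular to the members.

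Letters of the TCF/LEF core were looked for near the start sites, because β-cat was the protein altered. RefSeq windows (GRCm38.p6) from 250 bases before to 50 bases after the start were at hand for 59 of the 69 genes. CTTTGA, read on either strand, was in the windows of 4 of these 59 (6.78%), and in those of 4911 of all 27025 genes with a window (18.2%). The matches that lie upstream of the RefSeq gene, with 20 bases on each side and the motif in capitals, are these.
Nrp2, chr1:62703151-62703196, plus strand, 146 to 141 bases upstream: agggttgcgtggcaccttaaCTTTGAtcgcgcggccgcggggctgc
Sema3e, chr5:14025138-14025183, plus strand, 118 to 113 bases upstream: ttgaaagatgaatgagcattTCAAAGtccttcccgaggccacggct
TCAAAG is the same motif on the other strand. A match describes letters in this window, and no binding was measured here. The other matches are not shown, since that in Sema6d lies after the start site and that in Robo4 inside the gene as RefSeq outlines it.

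In control PFC the lowest of the 69 genes lay above 5.56% of the genes tested and the highest above 89.2%. Of the 69, 10 had a mean of 20 FPKM or more, 32 lay from 5 to 20, 19 from 2 to 5 and 8 below 2. Their median of 6.01 FPKM compares with 10.02 for the 13978 genes tested. The highest was Sema7a, a membrane-anchored semaphorin read by the plexin Plxnc1 and by integrins, at 62.7 ± 2.897 FPKM (SD, n = 4). It was followed by Ephb6, an Eph receptor without kinase activity, at 43.8 ± 4.61 and by Epha4, which binds ephrins of both classes, at 40.3 ± 2.32. Ephb6 and Epha4 did not differ beyond their spread, since the libraries ran from 38.3 to 48.6 FPKM for Ephb6 and from 38.5 to 43.7 for Epha4. Sema6b at 31.6 ± 3.55, Unc50 at 30.9 ± 1.46 and the ephrin-A ligand Efna3 at 30.7 ± 3.01 were close together.

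Among the semaphorins and their receptors, summed expression in control was 202 FPKM for 20 semaphorins, 85.8 for 9 plexins and 12.6 for both neuropilins. Class 3 semaphorins, the secreted ligands of neuropilin, ranged from 11.4 ± 2.25 FPKM for Sema3c to 0.783 ± 0.116 for Sema3b, the lowest of all members. Their co-receptors Nrp2 and Nrp1 had 6.56 ± 0.940 and 6.01 ± 0.713 FPKM, a gap smaller than either spread. Plxna2, a receptor for semaphorins of classes 3 and 6, led the plexins at 17.2 ± 2.75 FPKM, and Plxnb3 was lowest at 1.90 ± 0.201.

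In summed FPKM, over unequal numbers of genes, Eph receptors outweighed their ligands. The 7 EphA receptors summed to 100.7 FPKM against 40.6 for 4 ephrin-A ligands, and 5 EphB receptors summed to 64.7 against 49.6 for 3 ephrin-B ligands. Most of the EphB sum was Ephb6, without kinase activity, at 43.8 FPKM, and the next EphB receptor, Ephb1, had 9.43. Without Ephb6 the EphB receptors did not outweigh the ephrin-B ligands. Efna3 at 30.7 FPKM carried most of the ephrin-A sum, while Efna1 had 2.07 ± 0.355. Efnb3 led the ephrin-B ligands at 26.04 ± 1.26, and Efnb1 was lowest at 4.39 ± 0.582. The least expressed receptors were Epha8 at 0.998 ± 0.273 and Ephb4 at 1.11 ± 0.131 FPKM, the latter known mainly from veins.

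Slits and netrins were scarcer in sum, at 20.2 FPKM for 3 Slits and 26.7 for 5 netrins and netrin-Gs. Slit1 at 9.40 ± 0.976 FPKM was the highest of 3 Slits and Slit3 at 5.21 ± 1.06 the lowest, against 23.2 ± 0.934 for their receptor Robo2 and 1.02 ± 0.168 for Robo4, a Robo of blood vessels. Among the netrins, the membrane-anchored netrin-G Ntng2 had 11.6 ± 1.64 FPKM and the secreted Ntn3 2.11 ± 0.248. The receptor for secreted netrins Dcc was at 2.22 ± 0.485 FPKM, far below its relatives Unc5a at 22.02 ± 1.51 and Neo1 at 16.5 ± 0.967.

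**Figure D1:**
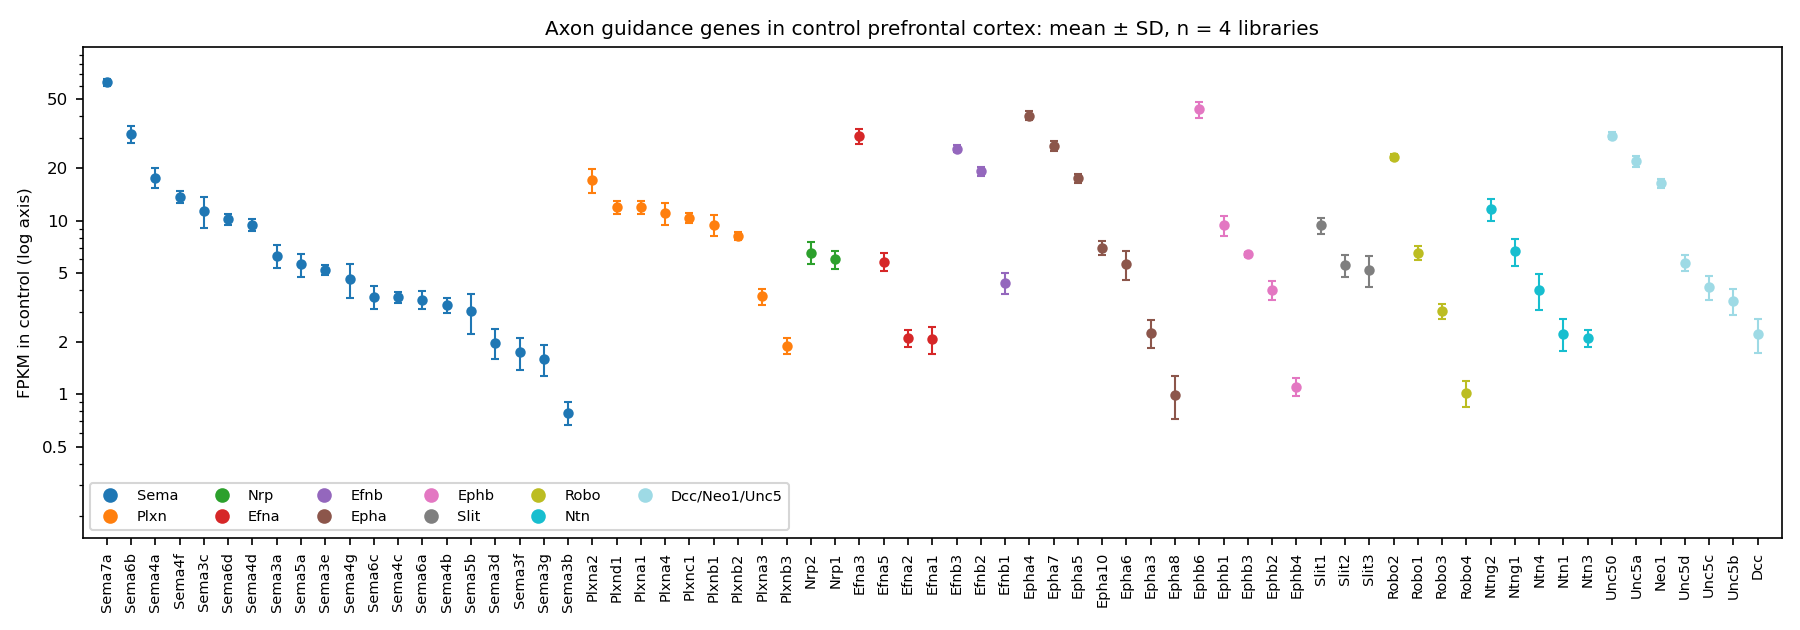
Mean FPKM in control PFC (vertical log axis) of each of the 69 genes, ordered by family and level, with bars for ± SD over 4 libraries and a colour for each family. Sema7a stands highest at 62.7 FPKM and Sema3b lowest at 0.783.

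Between libraries of a genotype the members varied more than the median gene. Their median residual SD was 0.19 on the log2 scale, against 0.15 over all genes tested and 0.15 over the 8341 genes of like mean level. Over all 16 libraries 14 members spanned less than 1.5-fold and 18 more than 2-fold. Efna3 (1.25-fold), Ntn3 (1.27-fold) and Efnb2 (1.28-fold) were the most even, and Epha8 (3.54-fold), Epha6 (3.40-fold), Robo3 (3.11-fold) and Epha3 (3.04-fold) the widest. Epha6 and Epha3, both EphA receptors, were picked out here after their values were seen.

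APC cKO was compared with control to ask what the loss of APC, with elevated β-cat, did to these genes. None of the 69 passed an adjusted p under 0.05, by limma with Benjamini-Hochberg adjustment over all genes tested, where 0.0429% of all genes did. Before adjustment, at a p under 0.05, 10 members were higher and 5 lower in APC cKO, against 4.82% and 5.19% of all genes, that is, 14.5% and 7.25% of the members. The median log2 change of the members was 0.02, and 67 of 69 lay within 0.5 of 0 on the log2 scale. Libraries of the 2 genotypes did not overlap for 6 members, or 8.70%, against 5.47% of all genes.

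The member with the smallest p was Efnb1, an X-linked ephrin-B ligand (chrX:99136130-99148991, mm10) that signals forward into Eph-bearing cells and back into its own. Its 4 control libraries had 4.87, 4.11, 4.87 and 3.70 FPKM, and the APC cKO libraries had 6.13, 6.22, 6.10 and 5.76. All APC cKO values lay above all control values. The log2 change was 0.46 ± 0.11 (SE), with a limma adjusted p of 0.213 and an exact permutation p of 0.0286, the smallest that 4 libraries against 4 can give. Its 95% interval ran from 0.24 to 0.69.

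Ntng2 and Nrp2 had a like pattern. Ntng2 (chr2:29194821-29252993), a netrin-G that binds the NGL-2 protein Lrrc4 at excitatory synapses rather than Dcc, had 12.9, 12.97, 9.52 and 11.2 FPKM in control. In APC cKO it had 15.4, 13.4, 14.3 and 16.2 FPKM, with no overlap and a log2 change of 0.35 ± 0.11 (adjusted p = 0.310). Nrp2 (chr1:62703317-62818692), the neuropilin that takes Sema3f and Sema3g, had 7.83, 5.90, 5.79 and 6.71 FPKM in control and 8.29, 7.88, 9.11 and 8.14 in APC cKO. Its lowest APC cKO library was just above its highest control library, and its log2 change was 0.35 ± 0.13 (adjusted p = 0.386). Nrp2 and Sema7a were chosen by the study on these same libraries, so their direction is not independent evidence.

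Also on the higher side, none past the adjusted threshold, were 4 semaphorin ligands. Sema3b, a secreted class 3 ligand, had 0.737, 0.801, 0.935 and 0.662 FPKM in control and 1.25, 1.05, 1.37 and 0.963 in APC cKO, with no overlap and a log2 change of 0.51 ± 0.18 (adjusted p = 0.383). Sema5b had 3.84, 3.53, 2.53 and 2.20 FPKM in control and 4.02, 4.24, 4.65 and 3.74 in APC cKO, and the groups overlapped by a single pair of libraries. The log2 changes were 0.48 ± 0.17 for Sema5b, 0.28 ± 0.10 for the membrane-bound Sema4c and 0.27 ± 0.11 for Sema3e, a ligand of Plxnd1. The receptors Plxnb2, Epha10 and Plxnb1 completed the 10, at 0.27, 0.22 and 0.20.

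On the lower side, Sema7a (chr9:57940135-57962865) had 66.7, 62.2, 62.2 and 59.8 FPKM in control and 43.3, 63.0, 47.1 and 44.3 in APC cKO. Replicate 2 of APC cKO lay within the control range, and the other libraries lay below it. The log2 change was -0.36 ± 0.11, with a limma adjusted p of 0.312 and an exact permutation p of 0.114. Robo3, a Robo that lets commissural axons cross the midline, had 3.23, 3.09, 3.21 and 2.57 FPKM in control and 1.199, 2.49, 1.70 and 2.49 in APC cKO, with no overlap. Its change of -0.65 ± 0.22 was the largest in size (adjusted p = 0.347), and its 95% interval from -1.10 to -0.19 was the only one of the 69 to reach past 1 in size. Epha4 had 38.5, 40.0, 39.02 and 43.7 FPKM in control and 30.8, 37.8, 32.7 and 33.3 in APC cKO, also without overlap, and its change was -0.26 ± 0.12. Ephb2 at -0.28 ± 0.11 and the ephrin-A ligand Efna5 at -0.29 ± 0.12 overlapped between genotypes.

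By family in APC cKO, all 3 ephrin-B ligands had log2 changes above 0 (0.12 to 0.46), and all 5 EphB receptors had changes below 0 (-0.28 to -0.09). The 3 ephrin-B ligands were also above 0 in β-cat cOE (0.11 to 0.14) and APC/β-cat cKO (0.13 to 0.20). EphB receptors ran from -0.32 to -0.10 in β-cat cOE and from -0.18 to 0.09 in APC/β-cat cKO, where 1 was above 0. All of these changes share the same control libraries. Of the 20 semaphorins 14 were above 0 in APC cKO, with a median of 0.06. The 7 genes of the Dcc, Neo1 and Unc5 group, with Unc50 counted among them, lay between -0.20 and 0.13 in APC cKO. None reached an unadjusted p under 0.05. The 15 members at an unadjusted p under 0.05 became 9 without the 4 libraries highest in striatal markers, and from 10 to 17 with each library left out in turn.

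**Figure D2:**
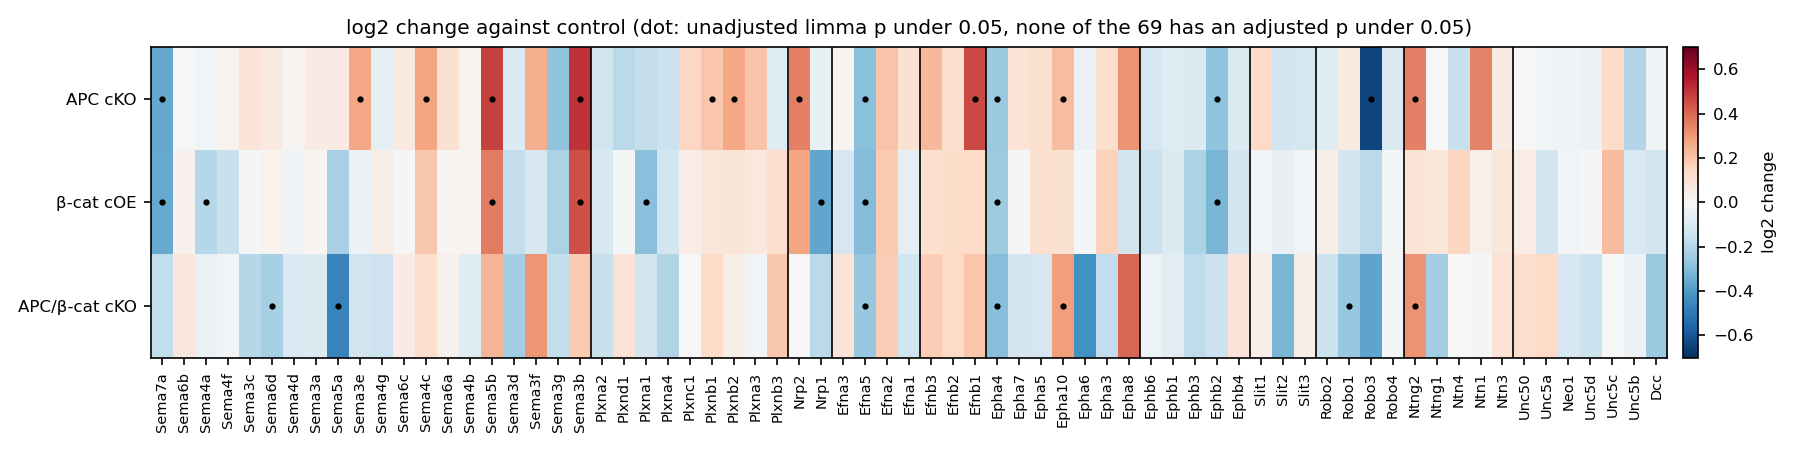
Log2 change against control of each of the 69 genes (columns, ordered by family and level) in the 3 mutant lines (rows), with red for higher and blue for lower and vertical lines between families. Dots mark an unadjusted limma p under 0.05. In APC cKO 15 genes reached it (14.5% higher and 7.25% lower, against 4.82% and 5.19% of all genes). In β-cat cOE 9 did (2.899% and 10.1%, against 2.3% and 2.77%), and in APC/β-cat cKO 7 (2.899% and 7.25%, against 7.17% and 7.03%). None of the 69 had an adjusted p under 0.05.

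β-cat cOE was compared with control to see elevated β-cat with APC in place. None of the 69 genes had an adjusted p under 0.05 by limma, against 0.0143% of all genes, and the smallest adjusted p was 0.946. At an unadjusted p under 0.05, 2 members were higher and 7 lower, or 2.899% and 10.1% of the members, where 2.3% and 2.77% of all genes were. The median log2 change was -0.01 and all 69 lay within 0.5 of 0. Groups did not overlap for 1 member, Sema7a, against 3.08% of all genes.

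Sema7a had 43.8, 50.3, 57.6 and 45.7 FPKM in β-cat cOE, each below the lowest control library at 59.8. Its log2 change was -0.35 ± 0.11, with a limma adjusted p of 0.946 and an exact permutation p of 0.0286. Nrp1, the co-receptor for Sema3a, had 6.90, 5.37, 5.51 and 6.29 FPKM in control and 4.35, 5.42, 4.30 and 4.51 in β-cat cOE. Replicate 2 of β-cat cOE overlapped with control, and the change was -0.36 ± 0.11. Ephb2, an EphB receptor of excitatory synapses, had 4.50, 4.09, 4.02 and 3.32 FPKM in control and 2.76, 3.03, 3.75 and 3.13 in β-cat cOE, a change of -0.32 ± 0.11 with overlap.

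The other members at an unadjusted p under 0.05 had changes of -0.30 for Efna5, -0.20 for Sema4a, -0.29 for Plxna1 and -0.25 for Epha4 on the lower side. Sema3b at 0.45 ± 0.18 and Sema5b at 0.36 ± 0.17 were on the higher side. Nrp2 was at 6.63, 9.37, 6.68 and 9.34 FPKM, a change of 0.27 ± 0.13 that did not reach an unadjusted p under 0.05, and 2 of its 4 libraries lay within the control range. The count of 9 depended on the libraries, and the share of all genes in the settings that follow is not given. It was 2 without the 4 libraries highest in striatal markers, 14 without β-cat cOE replicate 3, 4 without β-cat cOE replicate 2 or replicate 4, and 5 without β-cat cOE replicate 1 or control replicate 4.

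The elevated lines were set against each other to test whether the 2 ways of raising β-cat differed in these genes. The comparisons of each with control share the control libraries, so the direct comparison carries the test. None of the 69 differed at an adjusted p under 0.05 by limma (0.0429% of all genes did), and at an unadjusted p under 0.05 there were 5 members higher in APC cKO (7.25%, against 3.63% of all genes) and 0 lower (against 3.93%). Efnb1 was 0.33 ± 0.11 higher on the log2 scale in APC cKO than in β-cat cOE, where it had 5.17, 4.59, 4.27 and 5.24 FPKM, with no overlap (adjusted p = 0.457). Sema3e had 7.24, 6.13, 6.31 and 5.61 FPKM in APC cKO against 5.27, 5.41, 5.01 and 4.56 in β-cat cOE, again with no overlap, and its difference was 0.31 ± 0.11 (adjusted p = 0.469). These 2 made up the members without overlap (2.899%, against 5.2% of all genes).

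The other 3 members overlapped between the elevated lines, with differences of 0.31 ± 0.11 for Nrp1, 0.27 ± 0.11 for Ntng2 and 0.18 ± 0.08 for Sema4a. For Sema7a the change against control was -0.36 in APC cKO and -0.35 in β-cat cOE, from means of 49.4 FPKM in each. The count of 5 became 9 without APC cKO replicate 1 and 8 without β-cat cOE replicate 4.

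APC/β-cat cKO was compared with control to see the loss of APC without elevated β-cat. None of the 69 genes had an adjusted p under 0.05 by limma, against 0.207% of all genes. At an unadjusted p under 0.05, 2 members were higher and 5 lower (2.899% and 7.25%), where 7.17% and 7.03% of all genes were. The smallest adjusted p, 0.259, belonged to Epha10, an Eph receptor without kinase activity. It had 6.80, 7.85, 7.03 and 6.32 FPKM in control and 8.51, 7.83, 9.80 and 8.32 in APC/β-cat cKO, a log2 change of 0.29 ± 0.09.

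Ntng2 was the only member without overlap (against 5.21% of all genes), at 14.3, 13.1, 15.9 and 14.3 FPKM and a change of 0.31 ± 0.11 (adjusted p = 0.278). Sema5a, a transmembrane semaphorin, had 6.26, 5.21, 4.62 and 6.35 FPKM in control and 5.26, 3.76, 4.47 and 2.87 in APC/β-cat cKO, a change of -0.47 ± 0.15 with overlap. Epha4 at -0.30 ± 0.12, Robo1 at -0.26 ± 0.11, Sema6d at -0.23 ± 0.09 and Efna5 at -0.27 ± 0.12 were the others on the lower side. The count of 7 was 12 without APC/β-cat cKO replicate 1 and 3 without APC/β-cat cKO replicate 4. Replicate 4 was the library with the most genes at 0, 6649 against 5726 to 6451 in the others, and it was the lowest of its genotype for Sema5a, Sema6d, Epha4 and Efna5.

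The elevated lines were then compared with the reduced line. Between APC cKO and APC/β-cat cKO, which share the APC deletion and differ in β-cat, 0 members had an adjusted p under 0.05 by limma (0.215% of all genes did). At an unadjusted p under 0.05, 7 were higher in APC cKO and 1 lower (10.1% and 1.45%, against 4.15% and 6.13% of all genes). Groups did not overlap for 6 members (8.70%, against 5.49% of all genes). The median difference over the 69 was 0.06 and 45 were above 0.

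Sema3e (chr5:14025276-14256689), the ligand of Plxnd1, had the smallest adjusted p of any comparison with these 69 genes, 0.172. Its libraries had 7.24, 6.13, 6.31 and 5.61 FPKM in APC cKO and 5.47, 4.49, 5.23 and 3.91 in APC/β-cat cKO, without overlap. The difference was 0.40 ± 0.11 on the log2 scale, with a 95% interval from 0.18 to 0.63 and an exact permutation p of 0.0286. Its receptor Plxnd1 was on the other side at -0.29 ± 0.11, with overlap, from 9.20, 11.5, 9.24 and 12.2 FPKM in APC cKO and 15.5, 12.6, 11.8 and 11.7 in APC/β-cat cKO.

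Another 4 members had no overlap and an unadjusted p under 0.05. Sema5a had 6.36, 6.10, 5.42 and 5.38 FPKM in APC cKO, each above the 2.87 to 5.26 of APC/β-cat cKO, and differed by 0.53 ± 0.15. Sema6d, a class 6 semaphorin of the membrane, had 11.95, 9.87, 10.1 and 10.9 FPKM in APC cKO against 9.65, 9.30, 8.89 and 7.05, a difference of 0.30 ± 0.09. Robo1, a receptor of Slits, had 6.35, 6.78, 8.01 and 6.26 FPKM in APC cKO against 6.24, 4.73, 6.20 and 4.74, and its nearest libraries were almost equal. Nrp2 had 7.27, 5.55, 7.17 and 6.26 FPKM in APC/β-cat cKO and differed by 0.35 ± 0.13 (adjusted p = 0.371). Efnb1 at 0.27 ± 0.11 and Epha5 at 0.23 ± 0.10 overlapped, and the netrin receptor Unc5b had no overlap at -0.16 ± 0.11 without reaching an unadjusted p under 0.05.

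Between the reduced line and β-cat cOE, 0 members had an adjusted p under 0.05 by limma (0.229% of all genes did). Before adjustment 2 were higher and 3 lower in β-cat cOE at a p under 0.05 (2.899% and 4.35%, against 5.04% and 6.88% of all genes). Groups did not overlap for 3 members (4.35%, against 6.3% of all genes). Unc5a, a netrin receptor tied to repulsion, had 17.8, 20.9, 20.98 and 20.9 FPKM in β-cat cOE and 26.2, 24.5, 23.5 and 22.8 in APC/β-cat cKO, a difference of -0.27 ± 0.09 (adjusted p = 0.250). Efna3 had 28.5, 29.4, 27.4 and 27.5 FPKM in β-cat cOE and 31.3, 33.9, 32.9 and 32.1 in APC/β-cat cKO, a difference of -0.21 ± 0.07. Sema6d, the third without overlap, was 0.26 ± 0.09 above APC/β-cat cKO.

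The remaining members at an unadjusted p under 0.05 were Sema3f, the class 3 ligand of Nrp2, at -0.42 ± 0.18, and Epha5 at 0.23 ± 0.10. Robo2 differed by 0.19 ± 0.10 and Efnb2, the ephrin-B ligand with the most even level, by -0.01. The count of 5 was 12 without APC/β-cat cKO replicate 1, 8 without β-cat cOE replicate 4 and 3 without APC/β-cat cKO replicate 4.

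**Figure D3:**
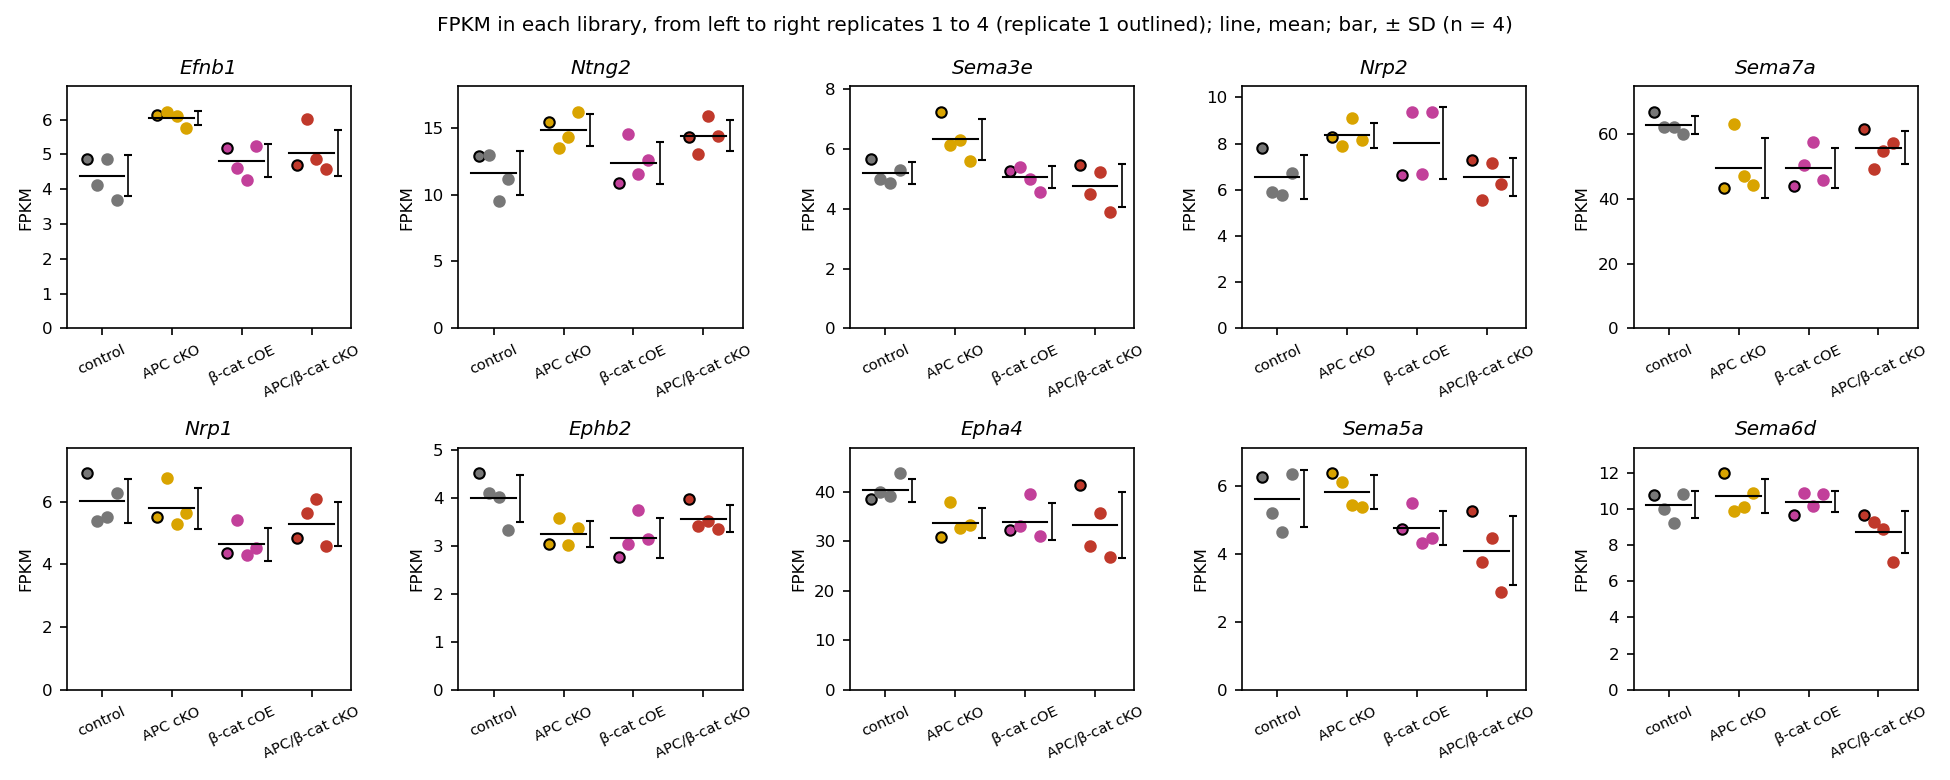
FPKM in each library (points, replicates 1 to 4 from left to right) of 10 of the members with the smallest p in the comparisons, by genotype, with the mean as a line and ± SD as a bar (n = 4). Efnb1 in APC cKO lies from 5.76 to 6.22 FPKM, above all control and β-cat cOE libraries, and Sema7a in both elevated lines lies mostly below the control range of 59.8 to 66.7.

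The grouping the study used sets both elevated lines, 8 libraries, against control and the reduced line, 8 libraries. None of the 69 members had an adjusted p under 0.05 by limma, against 0.0572% of all genes. At an unadjusted p under 0.05, 8 were higher and 3 lower in the elevated lines (11.6% and 4.35%), where 3.68% and 5.16% of all genes were. The 8 libraries of one side overlapped with those of the other for every member, as they did for all but 0.0286% of all genes. The median difference of the members was 0.05 on the log2 scale and that of all genes 0.00.

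Sema7a had a mean of 49.4 FPKM in the elevated lines and 59.2 in the other groups, a difference of -0.27 ± 0.08 with a limma adjusted p of 0.341 and an exact permutation p of 0.0106. Nrp2 had 8.18 FPKM against 6.56, a difference of 0.31 ± 0.09 with the same adjusted p and an exact permutation p of 0.0071. Both genes were chosen by the study for this contrast on these libraries, so these values describe that choice. Of the members the study did not print, Sema3b at 0.39 ± 0.13 and Ephb2 at -0.23 ± 0.08 came next, with adjusted p of 0.394 and 0.403. The others were Sema5b at 0.30, Efnb1 at 0.20, Sema3e at 0.18, Sema4c and Epha5 at 0.17, Sema6d at 0.16 and Unc5a at -0.14. The count of 11 was 6 without APC cKO replicate 1, and 7 without the 4 libraries highest in striatal markers.

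A test of any difference among the 4 genotypes gave 0 members at an adjusted p under 0.05 by limma, against 0.25% of all genes. It gave 12 members at an unadjusted p under 0.05, or 17.4%, where 12% of all genes passed. That count was 5 without the 4 libraries highest in striatal markers, and 5 with the number in the sample title as a block. Efnb1 led with an adjusted p of 0.222, followed by Sema3e, Ntng2, Sema5a and Sema7a.

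**Figure D4:**
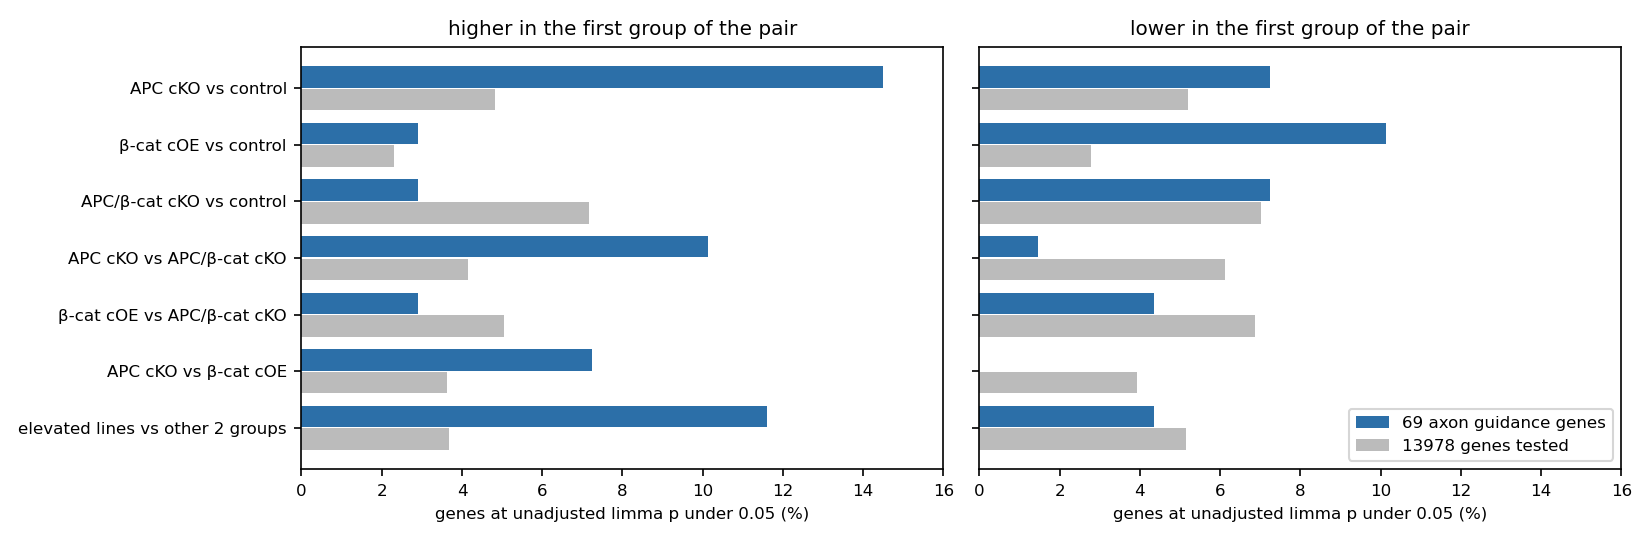
Share of the 69 genes (blue bars) and of the 13978 genes tested (grey bars) that reached an unadjusted limma p under 0.05, in percent, for genes higher (left) or lower (right) in the first group of each of 7 comparisons. In APC cKO against control 14.5% of the members were higher, against 4.82% of all genes. In the elevated lines against the other groups 11.6% were, against 3.68%. The share that was higher lay below that of all genes in APC/β-cat cKO against control (2.899%, against 7.17%) and in β-cat cOE against APC/β-cat cKO (2.899%, against 5.04%). Shares that were lower lay above those of all genes in each line against control and below them in the other comparisons. No gene of the 69 passed after adjustment in any comparison.

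Summed over families, the range of each mutant line overlapped with control except for semaphorins and ephrin-A ligands in β-cat cOE. The ephrin-A ligands summed to 38.2 to 43.5 FPKM in control and to 36.2 to 37.9 in β-cat cOE. The 20 semaphorins summed to 202 ± 5.57 FPKM in control, 194 ± 9.79 in APC cKO, 186 ± 5.62 in β-cat cOE and 190 ± 6.18 in APC/β-cat cKO. Ranges overlapped for APC cKO (182 to 206) and APC/β-cat cKO (183 to 198) with control (195 to 206), and lay below it in β-cat cOE (178 to 191). Sema7a alone accounted for 62.7 of the 202 FPKM in control and for 49.4 of the 186 in β-cat cOE. The 3 ephrin-B ligands summed to 49.6 ± 1.65 FPKM in control, 57.7 ± 5.31 in APC cKO, 54.3 ± 5.95 in β-cat cOE and 55.7 ± 3.87 in APC/β-cat cKO. Plexin sums differed by less than their spread, from 83.0 ± 3.64 in β-cat cOE to 85.8 ± 6.06 in control.

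The genes that work below or beside these receptors were also without calls. In 21 effectors of semaphorins and plexins, 15 of Ephs and ephrins, 17 of Robos and netrin receptors and 13 other ligands and partners, 0 passed an adjusted p under 0.05 by limma in any of the 7 comparisons. Of these 66 genes, 3 were higher and 6 lower in APC cKO than in control at an unadjusted p under 0.05, or 4.55% and 9.09%, against 4.82% and 5.19% of all genes. In β-cat cOE 0 were higher and 2 lower (0% and 3.03%, against 2.3% and 2.77% of all genes). In APC/β-cat cKO 1 was higher and 5 lower (1.52% and 7.58%, against 7.17% and 7.03%). Between APC cKO and APC/β-cat cKO, 5 were higher in APC cKO and 1 lower (7.58% and 1.52%, against 4.15% and 6.13%), and from 0 to 4 reached that level in the other comparisons. In APC cKO against control, at an unadjusted p under 0.05, the semaphorin and plexin list had 2 higher and 1 lower, the Eph list 1 and 1, the Robo and netrin list 0 and 2, and the other partners 0 and 2. Their median log2 changes there lay between -0.07 and 0.00. Rras, a small GTPase acted on by plexins, had a change of -0.32 ± 0.10 in APC cKO against control and -0.41 ± 0.10 against APC/β-cat cKO (adjusted p = 0.129). Dpysl3, a CRMP of the semaphorin path, had 0.48 ± 0.17 in APC cKO against control. Lrrc4, the partner of Ntng2, had -0.18 ± 0.06 in APC cKO against control (adjusted p = 0.316), and the heparan sulfate proteoglycan Gpc1 had -0.15 ± 0.07.

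Markers of other cells also differed between some groups before adjustment. Of 6 oligodendrocyte markers such as Mbp and Mag, 0 had an adjusted p under 0.05 by limma in any comparison, and 4 were lower in APC cKO than in control at an unadjusted p under 0.05, as 5.19% of all genes were. All 6 were lower in APC cKO than in APC/β-cat cKO at that level, as 6.13% of all genes were. In APC/β-cat cKO 3 were higher than in control (7.17% of all genes were). In β-cat cOE 3 were lower than in APC/β-cat cKO (6.88% of all genes were). In APC cKO 3 were lower than in β-cat cOE (3.93% of all genes were). The summed FPKM of the 6 ran from 452 to 629 in control, 390 to 476 in APC cKO, 437 to 586 in β-cat cOE and 571 to 688 in APC/β-cat cKO. Fibroblast markers of meninges and vessels summed to 15.1 to 27.4 in control, 19.9 to 27.1 in APC cKO, 19.7 to 25.9 in β-cat cOE and 12.2 to 21.3 in APC/β-cat cKO, and 3 of 5 were higher in APC cKO than in APC/β-cat cKO at an unadjusted p under 0.05, against 4.15% of all genes. Against control, 2 of the 5 fibroblast markers were higher in APC cKO at that level (4.82% of all genes were). So were 2 of 5 markers of olfactory and immature neurons. Markers of olfactory and immature neurons summed to 47.9 to 76.0 in control and 61.5 to 138 in APC cKO, and those of ependyma and choroid plexus to 2.32 to 5.11 and 1.64 to 21.2, with 2 of the latter at 0 in at least 1 library. The part of these cells in the differences of Efnb1, Sema3e, Nrp2 and the other members was not tested.

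Interneuron markers summed to 715 to 838 FPKM in control and 642 to 759 in APC cKO, with 2 of 7 lower at an unadjusted p under 0.05 (against 5.19% of all genes). Against APC/β-cat cKO at an unadjusted p under 0.05, 1 of the 7 was higher and 2 were lower in APC cKO (4.15% and 6.13% of all genes were). In β-cat cOE 2 were higher and 1 lower (5.04% and 6.88% of all genes were). Astrocyte markers summed to 726 to 759 in control and 723 to 904 in APC cKO, with 2 of 6 higher (against 4.82% of all genes). Those of microglia, endothelium and oligodendrocyte precursors summed to 107 to 116, 39.4 to 47.5 and 20.5 to 24.5 FPKM in control and to 97.7 to 113, 31.9 to 45.3 and 20.8 to 24.5 in APC cKO. Of 6 endothelial markers, 2 were lower in APC cKO than in control at an unadjusted p under 0.05 (5.19% of all genes were). Of 4 markers of oligodendrocyte precursors, 2 were higher in each elevated line than in APC/β-cat cKO at an unadjusted p under 0.05 (4.15% and 5.04% of all genes were). These were Vcan, at 0.33 and 0.31 on the log2 scale in APC cKO and β-cat cOE, and Pdgfra, at 0.24 and 0.28. Of 6 microglial markers, 2 were higher in APC/β-cat cKO than in control at that level (7.17% of all genes were). The part of these cells in the members' differences was not tested.

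In several members single libraries stood apart. By the Dixon's ratio described further below, 9 of 152 groups of the 38 named members held such a library, near the 7.6 given by chance. Ntn4, a secreted netrin-like protein of basement membranes, had 5.41, 3.17, 2.78 and 3.16 FPKM in APC cKO and 6.63, 4.05, 3.70 and 3.64 in β-cat cOE, so replicate 1 stood above the rest in both lines. In control its range was 2.81 to 4.91 FPKM, with replicate 1 the lowest. Its change was -0.15 in APC cKO against control and 0.15 in β-cat cOE, and between these lines it differed by -0.31.

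Sema3c, Sema3d and Epha3, picked out after their values were seen, had the same replicates highest. Sema3c had 15.9 FPKM in APC cKO replicate 1 against 9.13 to 12.3 in the others, and 16.6 in β-cat cOE replicate 1 against 8.85 to 11.03. Epha3 had 4.02 and 3.34 FPKM in these libraries, above the 1.32 to 2.82 of the other 14. Unc5a ran the other way, at 17.7 FPKM in APC cKO replicate 1 and 17.8 in β-cat cOE replicate 1, below the 20.7 to 26.2 of the other 14. By Xist and Y-linked genes APC cKO replicate 1 was female and β-cat cOE replicate 1 male. These 2 libraries also had the highest sums of olfactory and immature neuron markers of the 16, at 138 and 95.1 FPKM against 45.8 to 92.2 in the others, and astrocyte sums of 904 and 805, the highest and the third highest. A link between these values and the members was not tested.

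**Figure D5:**
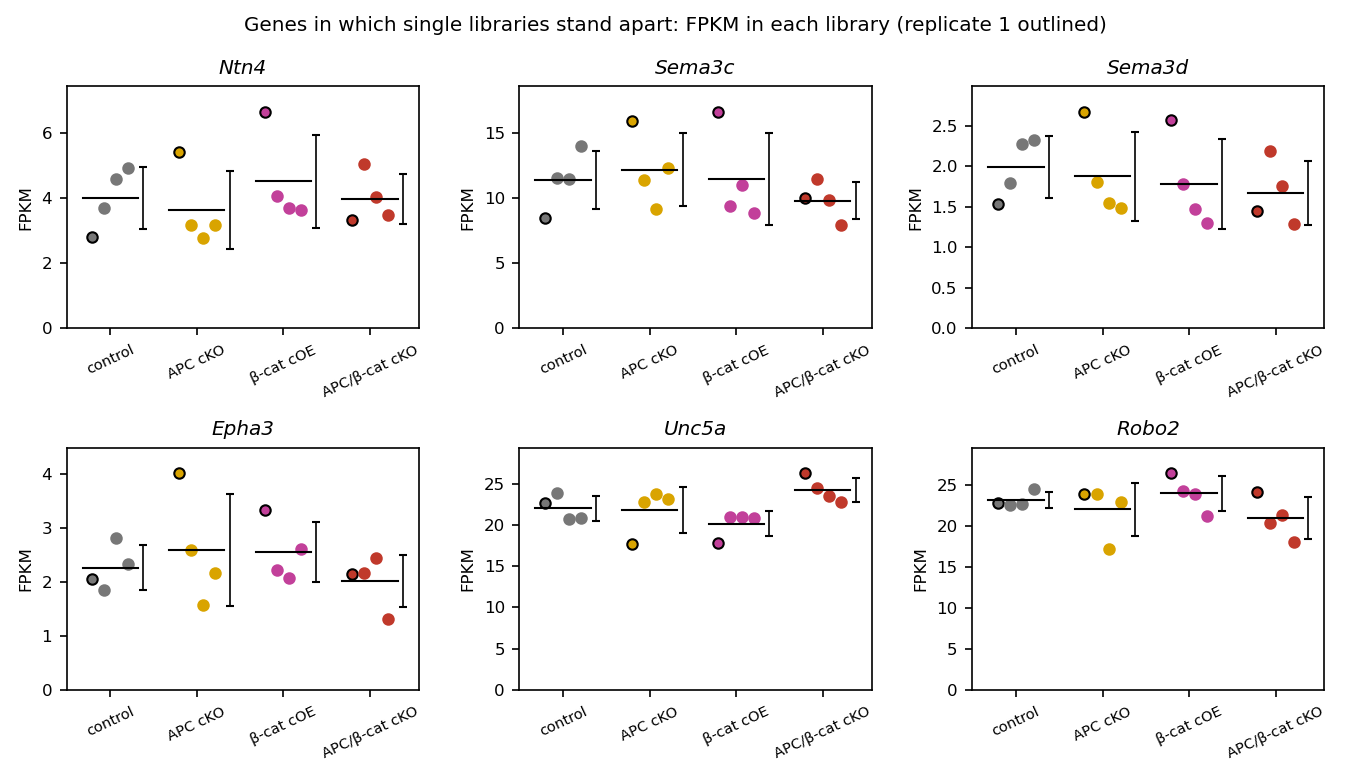
FPKM in each library (points, replicates 1 to 4 from left to right, replicate 1 outlined) of 6 members in which single libraries stand apart, by genotype, with the mean as a line and ± SD as a bar (n = 4). Replicate 1 of APC cKO and of β-cat cOE is highest for Ntn4 at 5.41 and 6.63 FPKM and lowest for Unc5a at 17.7 and 17.8.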

How the data were processed

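Poly(A) RNA of 16 PFC libraries was sequenced by the authors as stranded, paired-end reads of 100 bases, mapped to mm10 with TopHat2 2.0.10, and turned into normalized values with Cufflinks and Cuffdiff 2.1.1. The authors deposited FPKM values after a log transform, taken here as log2 of FPKM plus 1. Neither base nor offset is given in the sources used here. Both were inferred from column sums, and FPKM was recovered from them. Loci come from the table and are counted from 1.

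The 13978 genes whose mean reached 0.5 FPKM were tested in limma 3.58.1 (R 4.3.3, eBayes with a trend) on log2(FPKM + 0.1), with 4 genotypes in 1 fit and Benjamini-Hochberg adjustment. Log2 changes are on that scale, which understates the change of low genes. Exact permutation tests were two-sided, over libraries. Depth is unknown, since the table holds no counts, and the number of genes at 0 stood in for it. Sex, read from Xist and genes of the Y chromosome, was female in 2 libraries and male in 14.

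Members, gene lists and tests were chosen with earlier results of these data known. Members named are those with an adjusted p under 0.05, the 4 with the smallest p in each direction of each of 7 comparisons, the highest and lowest of each family, and Nrp2 and Sema7a. From each list of other pathway genes those with the 2 smallest p could be named. The values of 1 listed marker are not reported here. The alternatives changed the pseudocount to 1, dropped the filter or raised it to 2 FPKM, and scaled by quantiles or by median ratios. Others fitted without the trend, with sex, or with the number in the sample title as a block, used only the groups compared, and left out each of 16 libraries. The title number equals the replicate number except in APC cKO, where replicates 3 and 4 are numbered 4 and 5. A block for the column number and the omission of 4 libraries high in striatal markers were added after seeing the data. Tables and plots used Python 3.11.15, pandas 2.3.3, numpy 2.4.6, scipy 1.17.1 and matplotlib 3.10.9.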

Additional observations from a re-analysis of the deposited data

Results flagged for a closer look

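Within groups of 4 libraries, 9 of 152 groups of the 38 named members held a library far from the others by Dixon's ratio (its gap to the nearest library over the range of the group, above the 95% critical value), and chance flags about 1 in 20, or 7.6 groups. Replicate 1 accounts for 4 of them. Ntn4 was high there in APC cKO at 5.41 FPKM (ratio 0.851, others 2.78 to 3.17) and in β-cat cOE at 6.63 (0.863, others 3.64 to 4.05). Unc5a was low there in APC cKO at 17.7 FPKM (0.839, others 22.8 to 23.8) and in β-cat cOE at 17.8 (0.972, others 20.9 to 20.98).

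Control replicate 4 was high for Efna5 at 6.82 FPKM (ratio 0.831, others 5.33 to 5.58), Epha5 at 19.0 (0.856, others 16.9 to 17.2) and Robo2 at 24.6 (0.853, others 22.6 to 22.9). Robo2 was low in APC cKO replicate 3 at 17.2 FPKM (0.858, others 23.03 to 23.98), the library highest in striatal markers. Dcc was high in β-cat cOE replicate 3 at 2.17 FPKM (0.936, others 1.91 to 1.92).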

How the results depend on the processing

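No member reached an adjusted p under 0.05 in any comparison under any of the 11 alternatives or with any of the 16 libraries left out. For the 56 values of named members, all 1499 recomputed values kept their direction and stayed short of the threshold. Counts of members at an unadjusted p under 0.05 did depend on the settings. With the title number as a block, the count was 9 in place of 15 for APC cKO against control and 5 in place of 8 against APC/β-cat cKO. It was 3 in place of 5 for APC cKO against β-cat cOE, and 5 in place of 12 for any difference. In that fit APC cKO replicate 4, the only library numbered 5, had no weight in the comparisons. Deviations of libraries with the same title number had correlations from -0.22 to 0.32 over 21 pairs (mean -0.02). The highest was between replicate 1 of APC cKO and of β-cat cOE, and APC cKO replicate 3 was matched with replicate 4 of the others. Since not every pair was above 0.1, the title number was not taken as a pairing. Without the 4 libraries highest in striatal markers, the counts were 9 for APC cKO and 2 for β-cat cOE against control, 7 for the elevated lines, and 5 for any difference, with 12 libraries left. With each library left out, counts ran from 10 to 17 for APC cKO, 4 to 14 for β-cat cOE and 3 to 12 for APC/β-cat cKO against control. They ran from 7 to 11 and 3 to 12 for APC cKO and β-cat cOE against APC/β-cat cKO, 4 to 9 between the elevated lines, 6 to 15 for the elevated lines, and 8 to 14 for any difference. The elevated lines against the other groups use all 16 libraries, so no fit on the groups compared alone was added there. The cause of these shifts was not tested, and the share of all genes under each setting is not given. A median standard error of 0.13 on the log2 scale limits what these libraries can show.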
